A study of Mus musculus with 21 samples.

Results

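The Mediator kinase module genes are Cdk8, Cdk19, Ccnc, Med12, Med12l, Med13 and Med13l. Members were all non-control probes whose gene name in the scanner files is one of these symbols: 12 probes of 7 genes, of 55681 probes on the array. Of these, 10 probes of 6 genes stood well above background in at least 3 arrays and were tested, among 29628 tested probes in all.

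RNA came from organoids of the mouse small intestine, which are epithelial structures that crypts form when seeded in Matrigel. Every culture carried a myc-tagged, N-terminally truncated human beta-catenin behind a tetracycline-responsive promoter, with the M2-rtTA activator at the ROSA26 locus, so that doxycycline switches the transgene on. All cultures had first grown with doxycycline, and no group without the transgene was included. On 4 arrays (letters D to G) the cultures received compound 6, on 3 arrays (letters A to C) compound 9 and on 3 arrays (A to C) compound 2, each at 2 µM for 24 h with doxycycline still present. On 4 arrays (D to G) doxycycline was withdrawn for 24 h under vehicle, and 7 vehicle arrays (A to G) kept doxycycline. Per the series text, the compounds are close analogues from a 3,4,5-trisubstituted pyridine series that inhibit the kinases CDK8 and CDK19 by competing with ATP, so the genes described here encode the compounds' targets and their partners. The structural differences among the 3 compounds are not given in the sources used here.

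Mediator is a large protein complex that passes signals from DNA-bound transcription factors to RNA polymerase II. Its kinase module binds the core complex reversibly: CDK8 or its paralogue CDK19 phosphorylates, cyclin C (Ccnc) activates the kinase, MED12 (or its paralogue MED12L) takes part in that activation, and MED13 or MED13L anchors the module to the core. In human colorectal cancer, CDK8 is known as an amplified kinase that promotes beta-catenin-driven transcription. The arrays measured RNA of these genes, not kinase activity or protein.

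Each value is a log2 ratio of the organoid sample (Cy3) over a common mouse reference RNA (Cy5) on the same array, so levels of different probes cannot be set against each other. Arrays were paired by letter. Deviations from the group means correlated at 0.196 to 0.729 (median 0.5) between arrays of 1 letter. Between letters the correlations ran from -0.639 to 0.512 (median -0.174), so the ranges overlapped. Deviations cancel within each small group, so the median between letters is not a neutral baseline. Letters A to C and letters D to G lay on different slides and were scanned on different days and scanners, which cannot be told apart from the letter sets; each change is therefore taken against the vehicle arrays of its own letters. The epithelial markers other than Lgr5 and Olfm4, among them Vil1, Cdx2, Epcam and Muc2, were well above background on all 21 arrays, Lgr5 on 19 and Olfm4 on 3, and their levels in organoids over reference were high for Fabp1 (median log2 ratio 8.89) and Vil1 (6.32). The fibroblast and muscle markers Vim, Col1a1 and Acta2 had median log2 ratios of -7.50, -6.86 and -2.96, Ptprc of leukocytes -2.88 and Pecam1 of endothelium -0.23. These markers of other cells were also well above background on all 21 arrays, so their ratios do not show that such cells were absent. These are bulk samples, in which fewer cells of a type and less RNA per cell cannot be told apart.

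The probes, numbered by brightness within a gene, lie at the following mm9 positions. Cdk8 has probe 1 at chr5:147114021-147114080 and probe 2 at chr5:147114292-147114351, which start at bases 2156 and 2427 of the transcript, and probe 3 near the transcript's 5′ end at chr5:147043316-147043375 (base 65). Cdk19 has 1 probe at chr10:40201715-40201774. Ccnc has probe 1 at chr4:21676240-21676299 and probe 2 at chr4:21673861-21673920, which the scanner files assign to transcript variants 1 and 2. Med12 has probe 1 at chrX:98492544-98492603 and probe 2 at chrX:98494213-98494272. Med13 has 1 probe at chr11:86080253-86080312 (minus strand), and Med13l 1 probe at chr5:119207100-119207158. The remaining pair belongs to Med12l, at chr3:58920427-58920486 and chr3:58897521-58897580, and was well above background on 0 of 21 arrays; Med12l RNA was not detectable with these probes and was not tested. No annotation of exons, coding parts or UTRs on mm9 was used here.

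The sequences of 2 probes that read as known protein-coding sequence are printed because each varied little with another probe of its gene. Pearson's r over the 21 arrays, letter means removed, was -0.02 between Cdk8 probes 1 and 3 and 0.22 between the Ccnc probes. Cdk8 probe 3 covers the codons of the glycine-rich loop that holds ATP, where ATP-competitive inhibitors of a kinase bind; these codons are in capitals. Ccnc probe 2 lies near the end of the cyclin's coding sequence.
Cdk8 probe 3: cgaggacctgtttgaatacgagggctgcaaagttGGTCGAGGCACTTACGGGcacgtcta
Ccnc probe 2: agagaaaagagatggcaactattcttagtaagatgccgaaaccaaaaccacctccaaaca
The human CDK8 and CDK19 proteins are alike in the glycine-rich stretch, and whether Cdk8 probe 3 also binds Cdk19 RNA was not tested.

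Cdk19 RNA was lower with compound 6 and with compound 2, by close to the same amount, and did not pass the test with compound 9 or after doxycycline withdrawal. Without the letter block the compound 6 call held (adjusted p = 0.0118 in limma's test), and the compound 2 call ended (0.0808). Cdk8 RNA, at its brightest probe, was slightly higher with compounds 6 and 2. Both calls ended without the letter block and under 1 other scaling (median centring). Under that scaling the compound 6 change was -0.03 and the compound 2 change 0.03. Relative to the medians over all tested probes these were 0.06 and 0.14. No probe of Ccnc, Med12, Med13 or Med13l passed the test in any of these comparisons. The calls numbered 2 of 10 tested probes with compound 6, where 38.5% of all tested probes passed, 2 of 10 with compound 2, where 14.7% passed, 0 of 10 with compound 9, where 0.00338% passed (1 probe), and 0 of 10 after withdrawal, where 36% passed. In limma's test the members with an unadjusted p under 0.05 numbered 0 with compound 9 and 2 after withdrawal. With compound 6 and after withdrawal the module's share was below this background, and with compound 2 it was close to it. The 10 probes include Med12 probe 2, which was not well above background on any compound 6, withdrawal or vehicle array of letters D to G. By direction, 16.4% of all tested probes were called higher and 22.1% lower with compound 6, 8.06% and 6.65% with compound 2, and 14.5% and 21.5% after withdrawal. By gene, at the brightest probe, 1 of 6 measured members (Cdk8) was called higher and 1 (Cdk19) lower with compound 6. The same calls were made with compound 2, and the Cdk8 calls did not hold under median centring. The median change of the members was -0.05 with compound 6 and -0.04 with compound 2. The medians over all tested probes were -0.03 and 0.00.

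Cdk19 encodes the paralogous kinase that takes the place of CDK8 in a part of the Mediator complexes. Its log2 ratios were -1.37, -1.36, -1.35 and -1.47 with compound 6 (letters D to G), against -1.13, -0.92, -1.08 and -1.14 with vehicle. All 4 compound 6 arrays lay below all 4 vehicle arrays, in means of -1.39 ± 0.06 and -1.07 ± 0.10 (SD, n = 4 each). The change was -0.32 ± 0.07 (SE), a fold of 0.8, with an adjusted p of 0.00214 in limma's moderated test and of 0.0118 without the letter block. Within slides that hold both groups the difference was -0.50 (2 compound 6 arrays against 1 vehicle array), -0.20 (1 against 1) and -0.27 (1 against 2). These differences are not paired by letter, the second being compound 6 F against vehicle G.

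With compound 2, the Cdk19 log2 ratios were -1.21, -1.30 and -1.17 (letters A to C), against -0.84 in vehicles B and C and -1.04 in vehicle A. The groups did not overlap, with means of -1.23 ± 0.07 and -0.91 ± 0.11 (SD, n = 3 each). The change was -0.32 ± 0.08 (adjusted p = 0.0155) and was negative for 3 of 3 letters, at -0.17, -0.46 and -0.32. Both slides gave -0.32, which regroups the same letter differences, as letters A and B lay on 1 slide and C on the other. Without the letter as a block the adjusted p was 0.0808. It was 0.104 without compound 2 B, 0.103 without vehicle B and 0.069 without vehicle C, with changes of -0.27, -0.26 and -0.29.

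With compound 9, Cdk19 read -0.82, -0.90 and -0.92 in letters A to C, with a range that overlaps that of the same vehicle arrays. The change was 0.03 (95% confidence interval -0.15 to 0.20), and the slides gave 0.08 and -0.08. After doxycycline withdrawal, Cdk19 split by letter: withdrawal arrays D and G read -1.35 and -1.41, F read -1.05 and E was the highest of the 4, against -1.14 to -0.92 over the 4 vehicle arrays. The withdrawal change was -0.14 ± 0.07 with an adjusted p of 0.154, the groups overlapped, and letter F had a small change of the opposite sign, so 1 of 4 letters was higher. The order of the Cdk19 means within letters D to G was compound 6, withdrawal (-1.20 ± 0.21) and vehicle, in which withdrawal did not differ from either neighbour past the threshold. Within letters A to C it was compound 2, vehicle and compound 9 (-0.88 ± 0.05), in which vehicle and compound 9 did not differ beyond their spread.

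Cdk8 encodes the module's better studied kinase, and its 3 probes did not give the same picture. Probe 1 read 0.19, 0.01, 0.34 and 0.21 with compound 6 (D to G), against -0.13, 0.04, 0.14 and 0.00 with vehicle. The ranges overlapped, since letter E was slightly lower with the compound while the other 3 letters were higher. The change was 0.17 ± 0.06 (adjusted p = 0.0292), but it turned to -0.03 (adjusted p = 0.835) when each array's log ratios were centred on their median in place of loess.

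With compound 2, Cdk8 probe 1 read 0.29, 0.41 and 0.26 (A to C), against -0.01, 0.16 and 0.07 with vehicle. The compound 2 arrays all lay above the vehicle arrays, with means of 0.32 ± 0.08 and 0.07 ± 0.08 (SD, n = 3 each). The change was 0.25 ± 0.07, a fold of 1.19 (adjusted p = 0.0227), and 0.30, 0.25 and 0.19 by letter. Median centring in place of loess brought it to 0.03 (adjusted p = 0.89). That scaling moved the median of all tested probes to -0.11 with compound 2 and -0.10 with compound 6, and relative to these medians Cdk8 probe 1 was at 0.14 with compound 2 and 0.06 with compound 6.

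The Cdk8 probe 1 calls also ended without the letter block, with an adjusted p of 0.114 for compound 6 and 0.135 for compound 2. For compound 6 the adjusted p was 0.114 without compound 6 D, 0.0907 without compound 6 F, 0.0675 without compound 6 G, 0.12 without vehicle D and 0.0812 without vehicle G, with changes of 0.14 to 0.17. For compound 2 it was 0.122 without compound 2 A, 0.0694 without compound 2 B, 0.0661 without compound 2 C, 0.112 with vehicle A left out and 0.0874 with vehicle B left out, with changes of 0.23 to 0.26.

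Cdk8 probe 2, which lies further along the same transcript, varied with probe 1: over the 21 arrays, after removal of the letter means, Pearson's r was 0.79, as a description of probes that share arrays and groups. It read 0.23, 0.20, 0.48 and 0.23 with compound 6, against 0.20, 0.17, 0.29 and 0.07 with vehicle, and 0.49, 0.42 and 0.38 with compound 2, against 0.30, 0.27 and 0.21 with vehicle. Its changes of 0.11 ± 0.06 and 0.17 ± 0.07 did not pass (adjusted p = 0.168 and 0.105). Under median centring they read -0.10 and -0.03, where the medians over all tested probes were -0.10 and -0.11. Relative to these medians probe 2 was at 0.00 with compound 6 and 0.08 with compound 2. The compound 6 change of probe 2 was 0.15 with the deposited series matrix (adjusted p = 0.0482), and its compound 2 change had an adjusted p of 0.0441 when the letter F arrays were left out of the fit. Probe 3, in the codons printed above, did not vary with probe 1 (r = -0.02) or probe 2 (r = 0.04). Its compound 2 change was 0.00 (95% confidence interval -0.28 to 0.28), and its compound 6 change was 0.15 (-0.09 to 0.39), at wider intervals than for the brighter probes. Without compound 6 G the probe 3 change with compound 6 was 0.30 (adjusted p = 0.0328), so that 1 array decides this value.

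With compound 9, Cdk8 probe 1 read 0.10, 0.28 and 0.09 and its change was 0.08 (95% confidence interval -0.06 to 0.23). Probe 2 read 0.36, 0.41 and 0.31 with compound 9, all above the same 3 vehicle arrays, yet its change of 0.10 (-0.04 to 0.25) did not pass (adjusted p = 1). After withdrawal, probe 1 read 0.01, 0.06, 0.14 and 0.09, inside the vehicle range, with a change of 0.06 (-0.06 to 0.19). Both of these probe 1 changes were positive under median centring too, at 0.01 and 0.04. In the sample channel alone the withdrawal change of probe 1 was 0.20 (adjusted p = 0.0405), where the median over all tested probes was 0.09.

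**Figure D1:**
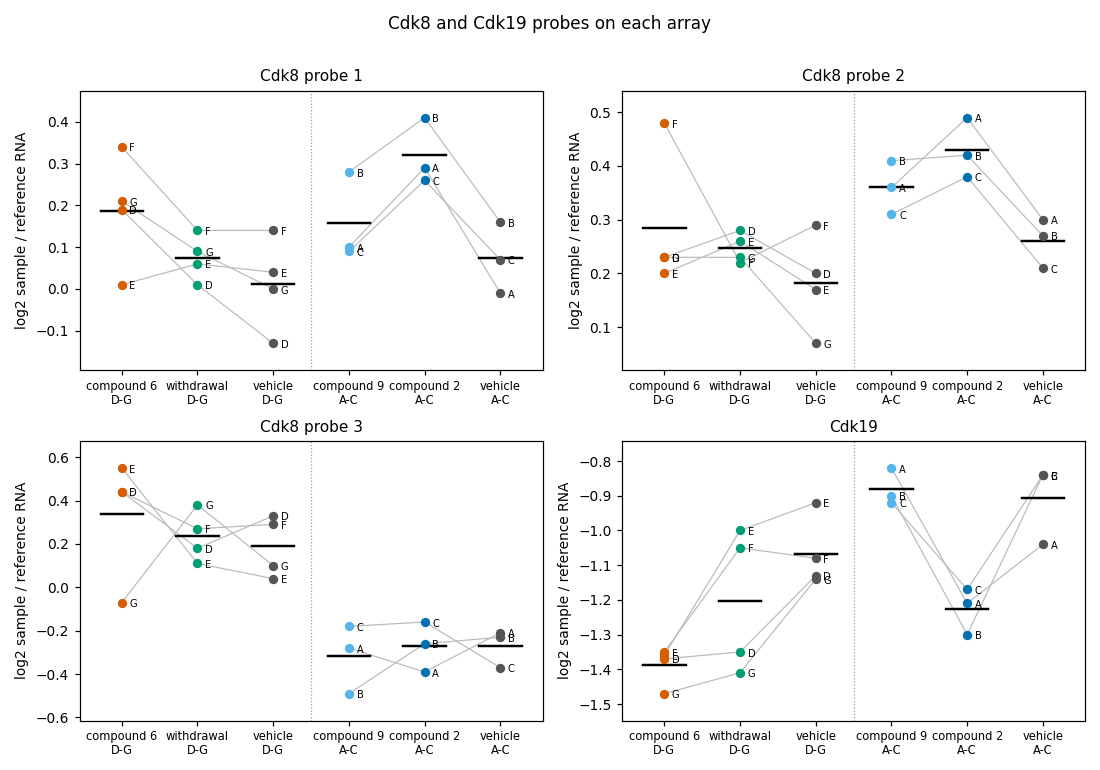
Log2 ratio of organoid sample over reference RNA (y axis) on each array for the 3 Cdk8 probes and Cdk19, by group (x axis); points are arrays marked with their letter, grey lines join arrays of 1 letter, black bars are group means and the dotted line parts the letter sets. All compound 6 and compound 2 arrays lie below their vehicle arrays for Cdk19, and Cdk8 probe 1 is higher in means of 0.32 against 0.07 with compound 2 and 0.19 against 0.01 with compound 6, the compound 6 difference being -0.03 under median centring.

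Ccnc encodes cyclin C, the activating partner of both kinases. Probe 1 read 0.24, 0.35, 0.20 and 0.25 with compound 6 and 0.17, 0.22, 0.33 and 0.11 after withdrawal (D to G), against 0.57, 0.39, 0.30 and 0.28 with vehicle. The withdrawal change of -0.18 ± 0.08 had a 95% confidence interval of -0.34 to -0.02, but an adjusted p of 0.0825 over all probes, and the groups overlapped. Without withdrawal F it was -0.24 (adjusted p = 0.0255). The compound 6 change was -0.13 ± 0.08 (adjusted p = 0.211), with 0 of 4 letters higher.

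In letters A to C, Ccnc probe 1 averaged 0.74 ± 0.24 with compound 9, 0.79 ± 0.07 with compound 2 and 0.76 ± 0.15 with vehicle (SD, n = 3 each), so the groups differed by less than their spread. Ccnc probe 2, printed above, gave changes of -0.10 with compound 6, -0.05 with compound 2, 0.07 with compound 9 and -0.11 after withdrawal, each with a confidence interval that holds 0. The pair of Ccnc probes varied weakly together over the arrays (r = 0.22, n = 21).

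Med12 encodes the subunit through which cyclin C and the kinase are activated. Probe 1 averaged -0.82 ± 0.11 with compound 6, -0.76 ± 0.05 after withdrawal and -0.74 ± 0.07 with vehicle D to G (SD, n = 4 each). In letters A to C it averaged -0.74 ± 0.05 with compound 9, -0.80 ± 0.07 with compound 2 and -0.71 ± 0.10 with vehicle (SD, n = 3 each). These changes lay between -0.09 and -0.02, and the lowest adjusted p was 0.306, with compound 6. Under median centring the compound 6 change of this probe was -0.28 (adjusted p = 0.0196). Med12 probe 2 was well above background on all 9 arrays of letters A to C and on none of the 12 arrays of letters D to G, so no fold is given for compound 6 or withdrawal. Its changes in letters A to C were -0.08 with compound 9 and -0.02 with compound 2.

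Med13 and Med13l encode the alternative subunits that anchor the module to core Mediator, and both probes were dim, being well above background on 19 of 21 arrays each. Med13 read -0.03, 0.05, 0.08 and -0.12 with compound 6 and 0.08, 0.11, 0.14 and -0.03 after withdrawal, against -0.17, -0.01, 0.15 and -0.09 with vehicle; compound 6 G and vehicle G were not well above background. The withdrawal change was 0.11 ± 0.07 (adjusted p = 0.227) by loess, and 0.47 with Agilent's own log ratios (adjusted p = 0.0427), 0.48 in the sample channel alone (0.0267) and 0.47 with the deposited series matrix (0.0385).

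Med13l read 0.31, 0.08, -0.12 and 0.25 after withdrawal, against -0.08, -0.27, -0.01 and 0.01 with vehicle. It was higher in 3 of 4 letters, with F lower, and the change was 0.22 ± 0.09 with an adjusted p of 0.0779. Without withdrawal F or without vehicle F the change was 0.30, with adjusted p of 0.0211 and 0.0207. In the sample channel alone it was 0.59 (adjusted p = 0.0472). With compound 6 only 2 of 4 arrays (D and G) were well above background, at -0.01 and 0.09, while E and F read -0.33 and -0.19. Changes of both genes with compounds 9 and 2 lay between -0.06 and -0.02, with confidence intervals that hold 0.

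**Figure D2:**
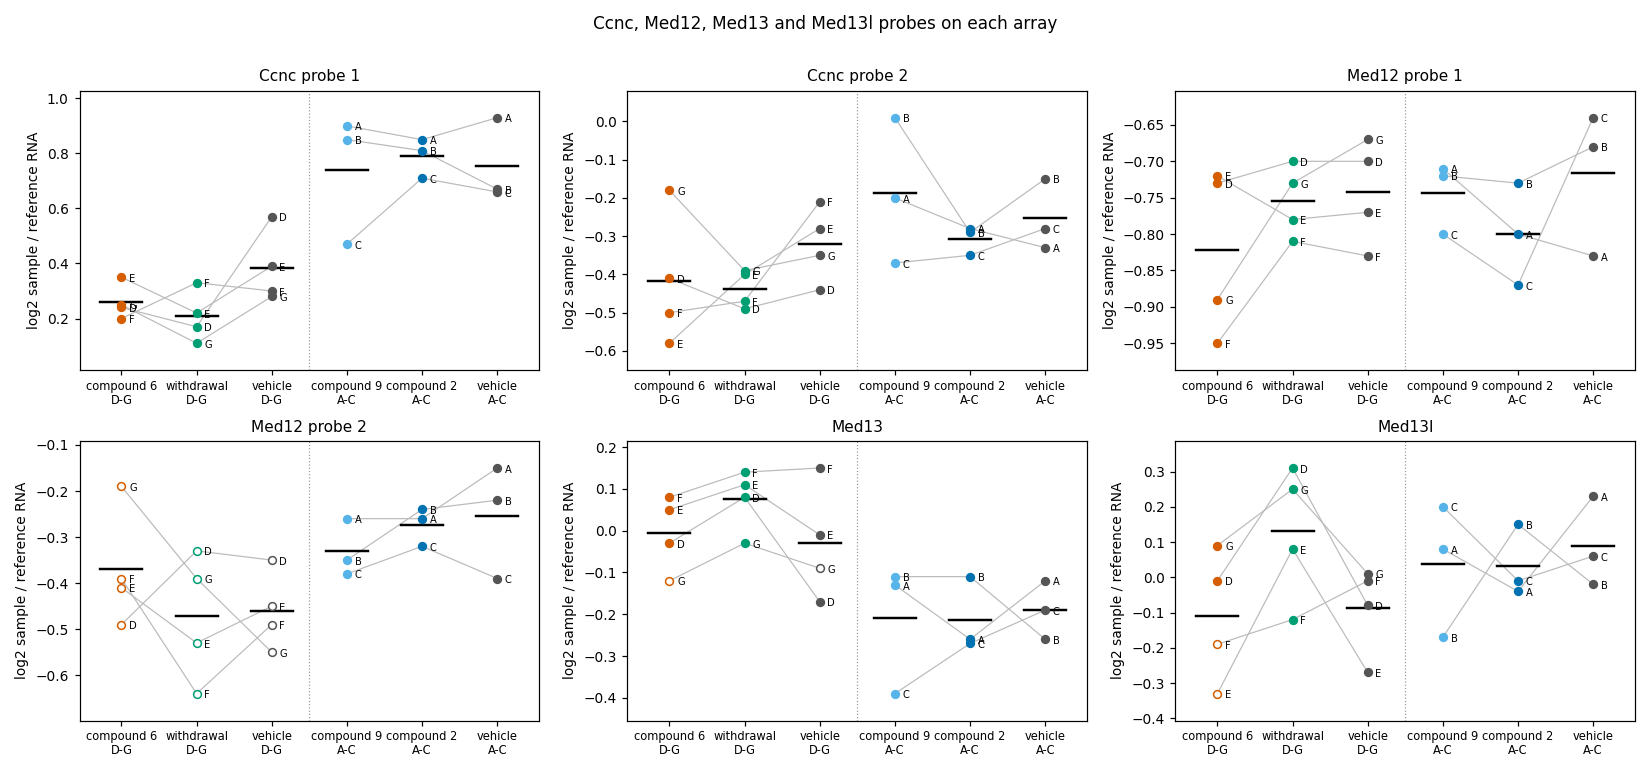
Log2 ratio of organoid sample over reference RNA (y axis) on each array for the Ccnc, Med12, Med13 and Med13l probes, by group (x axis); hollow points are arrays where the probe was not well above background, grey lines join arrays of 1 letter and black bars are group means. Groups overlap with their vehicle arrays in every panel, and Med12 probe 2 is hollow on all 12 arrays of letters D to G.

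**Figure D3:**
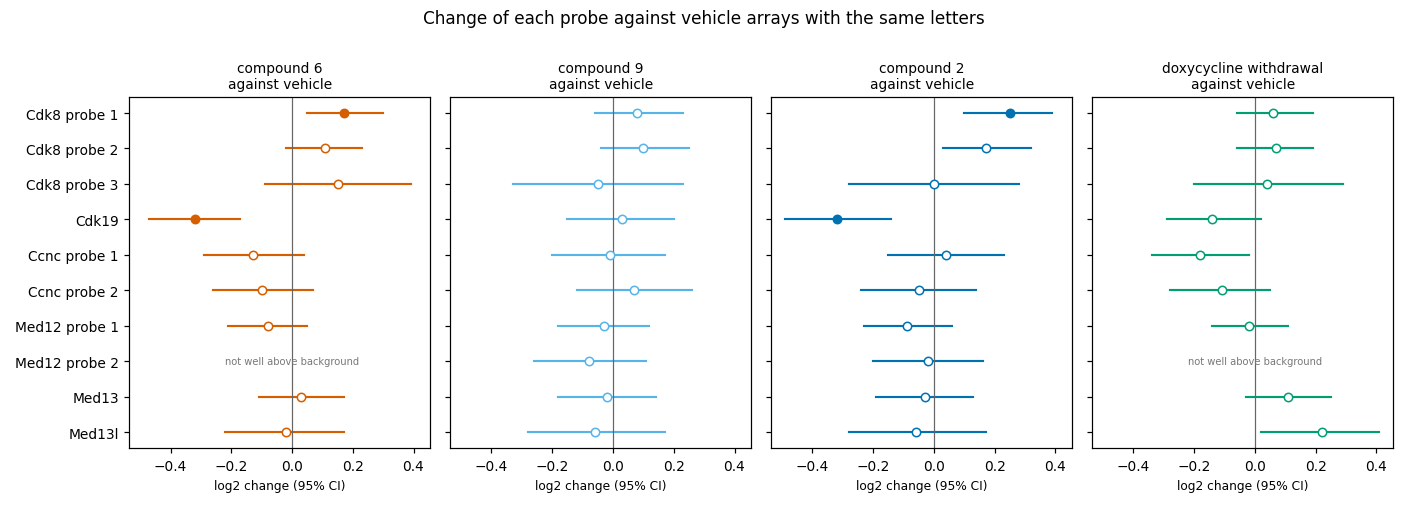
Log2 change with its 95% confidence interval (x axis) of each tested probe (rows) against vehicle arrays with the same letters, in 1 panel for each of compound 6, compound 9, compound 2 and doxycycline withdrawal; filled points passed an adjusted p of 0.05. No point is drawn for Med12 probe 2 with compound 6 or after withdrawal, where it was not well above background. The filled points are Cdk8 probe 1 and Cdk19 with compounds 6 and 2. The Cdk8 probe 1 point for compound 6 turns to -0.03 under median centring.

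The compounds were compared at their common dose and time in 3 pairs over 10 probes, making 30 comparisons. Of these, 2 passed when p-values were adjusted jointly over all tested probes and the 3 pairs, and both were of Cdk19. The 30 include Med12 probe 2 in the pairs with compound 6, where it was not well above background on the compound 6 arrays. Between compound 9 and compound 2, which share letters, Cdk19 differed by 0.35 ± 0.08 (jointly adjusted p = 0.0112; 13.5% of all tested probes passed in this pair). All 3 compound 9 arrays lay above the 3 compound 2 arrays. The slides gave 0.40 (letters A and B) and 0.25 (letter C). The adjusted p of this pair was 0.0102 over its own probes, 0.0606 without the letter block, 0.0776 without compound 2 B (difference 0.29) and 0.0859 without compound 9 A (0.29).

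Compound 6 and compound 9 were given to different letters, so the test is of the difference between their changes against their own vehicles. For Cdk19 it was -0.35 ± 0.11 (jointly adjusted p = 0.0439; 19.3% of all tested probes passed in this pair). The call over this pair's own probes (adjusted p = 0.0348) ended without the letter block (0.135) and in 8 of 14 fits that each left out 1 array. These were compound 6 E (0.0827), compound 6 F (0.057), compound 9 A (0.129), compound 9 B (0.0724), vehicle A (0.14), vehicle D (0.0617), vehicle E (0.0701) and vehicle G (0.0721), with differences of -0.36 to -0.26.

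Between compound 6 and compound 2 no module probe passed in limma's test (0 had an unadjusted p under 0.05), against 8.56% of all tested probes. The difference of their Cdk19 changes was 0.00, with a 95% confidence interval of -0.23 to 0.23, and that of Cdk8 probe 1 was -0.07 (-0.26 to 0.12). The intervals are as wide as most of the changes themselves, so the test does not show that these compounds act alike. For Cdk8 probe 1, compound 9 was lower than compound 2 by a difference of -0.16 (-0.31 to -0.02; adjusted p = 0.133), which was -0.01 under median centring. The difference between compounds 6 and 9 for that probe was 0.09 (-0.10 to 0.28), and -0.04 under median centring.

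**Figure D4:**
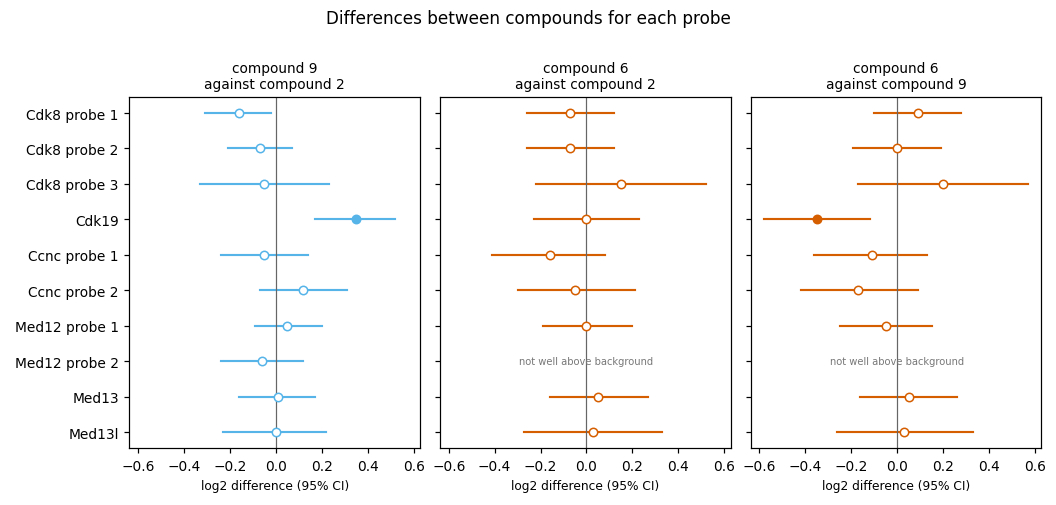
Log2 difference with its 95% confidence interval (x axis) for each tested probe (rows) between compounds at the same dose and time; filled points passed an adjusted p of 0.05 over all probes. Cdk19 is the filled row, at 0.35 for compound 9 against compound 2 and -0.35 for compound 6 against compound 9. For compound 6 against compound 2 Cdk19 sits at 0.00. No point is drawn for Med12 probe 2 in the pairs with compound 6, where it was not well above background.

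Compound 6 was also set against doxycycline withdrawal, in which the transgene's inducer is removed, in letters D to G. No module probe passed in limma's test (2 had an unadjusted p under 0.05), against 30.7% of all tested probes. Cdk19 was lower with compound 6 in 4 of 4 letters, by a difference of -0.19 ± 0.07, at an adjusted p of 0.059. That p was 0.0477 without compound 6 D, 0.0478 without withdrawal D and 0.0441 without withdrawal G, with differences of -0.23 to -0.22. The Cdk19 difference also passed, at larger sizes, with Agilent's own log ratios (-0.30, adjusted p = 0.0296). It did so too in the sample channel alone (-0.29, 0.0139) and with the series matrix (-0.29, 0.0315). The medians over all tested probes were -0.03, -0.03 and -0.01 in these fits. Under median centring the Cdk19 difference was -0.27 (adjusted p = 0.0445). Relative to the median over all tested probes this was -0.22, against -0.20 in the reported fit. At its reported size the Cdk19 difference passed when signal was required on all arrays (0.0413). Within slides the Cdk19 difference was -0.28 on one slide (2 compound 6 arrays against 3 withdrawal arrays) and 0.04 on another (1 against 1), not paired by letter. Med13l differed by -0.24 ± 0.09 (adjusted p = 0.0577, and 0.0442 when only the arrays of these groups were fitted). Without withdrawal F it differed by -0.32 (0.0179). For Med13l, compound 6 E and F were not well above background, and the largest letter difference was at E (-0.41). For Cdk8 probe 1 the difference was 0.11 ± 0.06 (adjusted p = 0.179), 0.17 without compound 6 E (0.0364) and -0.07 under median centring.

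**Figure D5:**
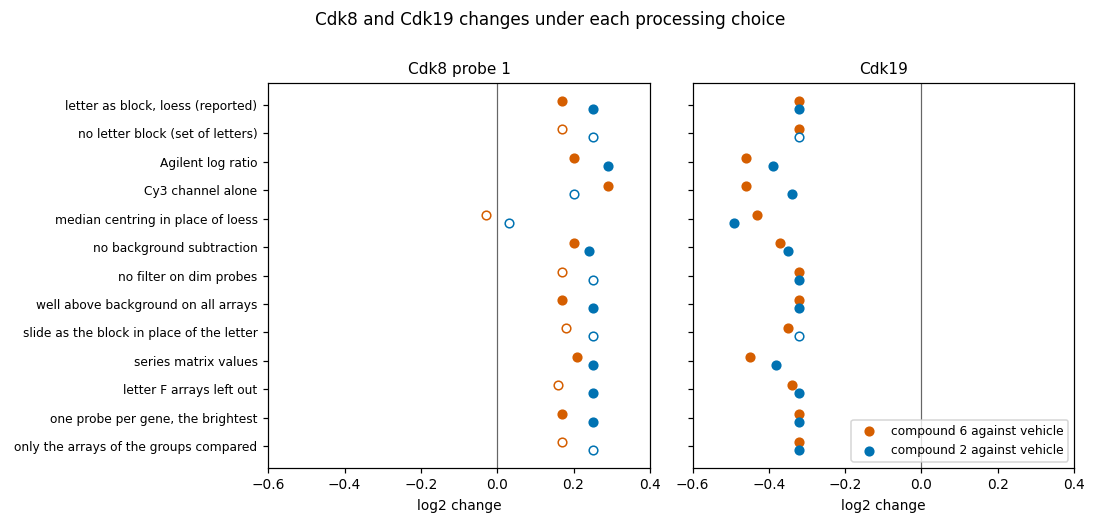
Log2 change (x axis) of Cdk8 probe 1 and of Cdk19 with compound 6 and compound 2 against vehicle under the reported processing and each alternative (rows); filled points passed an adjusted p of 0.05. Cdk19 with compound 6 is filled in every row, at -0.46 to -0.32, while Cdk8 probe 1 runs from -0.03 to 0.29 with compound 6 and from 0.03 to 0.29 with compound 2, the lowest values being under median centring.

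The core of Mediator, to which the kinase module binds, was represented by 26 genes, all of them tested at their brightest probe. With compound 6, 1 core gene passed as higher and 10 as lower, with a list median of -0.08. After withdrawal 0 were higher and 11 lower, with a median of -0.14. With compound 9 none passed, and 0 had an unadjusted p under 0.05 (limma; median -0.01), and with compound 2 only Med1, the subunit that binds nuclear receptors, passed (-0.20 ± 0.06, adjusted p = 0.0459, and 0.252 without the letter block; list median -0.07). The medians over all tested probes were -0.03, -0.01, -0.01 and 0.00 for compound 6, withdrawal, compound 9 and compound 2. Lower calls made up 22.1% of all tested probes with compound 6, 21.5% after withdrawal and 6.65% with compound 2. With compound 9, 0.00338% passed in either direction. Without the letter block, where 23.3% of all tested probes passed with compound 6, 18.8% after withdrawal and 4.42% with compound 2, the core counts were 1 higher and 7 lower with compound 6, 0 higher and 7 lower after withdrawal, and 0 with compound 2. With median centring they were 1 higher and 15 lower with compound 6, and 1 higher and 10 lower after withdrawal. With compound 2 they were 0 higher and 10 lower. Under that scaling the medians over all tested probes were -0.10, -0.01 and -0.11 for compound 6, withdrawal and compound 2. The list medians were -0.28, -0.17 and -0.25. In the sample channel alone, 3 core genes were higher and 3 lower after withdrawal, where the median over all tested probes was 0.09. The shares of all tested probes that passed under these 2 settings are not given here, so these counts have no background to be read against.

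The core genes with the largest passing changes after withdrawal were Med30 (-0.34 ± 0.07), Med19 (-0.33 ± 0.06) and Med28 (-0.25 ± 0.07), with adjusted p of 0.00175, 0.00032 and 0.00728. Med28's other probe read -0.18 (adjusted p = 0.054), and the Med30 call ended without the letter block (0.0961). With compound 6, Med9 fell by 0.38 (SE 0.06) and Med30 by 0.37 (SE 0.07), with adjusted p of 0.000147 and 9e-04; without the letter block these were 0.0011 and 0.0619. Med16, a subunit of the tail module that contacts transcription factors, was higher with compound 6 at its brighter probe (0.50 ± 0.10, adjusted p = 0.00103) and lower at its other probe (-0.76 ± 0.07, adjusted p = 1.9e-06), so no direction is given for the gene. Med1's other 3 probes read -0.03, -0.09 and -0.03 with compound 2 and did not pass. Against withdrawal, compound 6 gave 4 core genes as higher and 2 as lower, so 6 of 26 passed where 30.7% of all tested probes did. Without the letter block these counts were 2 and 0, and under median centring 0 and 3, where the median over all tested probes was -0.05. The shares of all tested probes that passed in these other fits are not given here. Med10 was higher by 0.29 ± 0.05 at its brighter probe, while its other probe read 0.16 and did not pass (adjusted p = 0.0926). Med16 is among the 4 at its brighter probe (0.34 ± 0.10), but its other probe read -0.45 (adjusted p = 0.000352).

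Among 10 genes of the other transcriptional kinases, 2 were lower with compound 6, a share close to the 22.1% of all tested probes: Mnat1 (-0.31 ± 0.08), the assembly factor of the CDK7 kinase, and Cdk9 (-0.26 ± 0.05), the kinase of P-TEFb, whose other 2 probes read -0.14 and -0.05 and did not pass. After withdrawal 3 were lower, where 21.5% of all tested probes were: Mnat1 (-0.45 ± 0.08) and, named after their values were seen to complete the count, Cdk9 (-0.17 ± 0.05) and Ccnk (-0.15 ± 0.05), the cyclin of CDK12 and CDK13. Hexim1, an inhibitor of P-TEFb, was higher after withdrawal (0.36 ± 0.08, adjusted p = 0.0034). In limma's test none passed with compound 9 or compound 2, where 0 and 1 had an unadjusted p under 0.05. Of all tested probes, 0.00338% passed with compound 9 and 14.7% with compound 2. Hexim1 was lower with compound 6 than after withdrawal, by a difference of -0.47 ± 0.08 (adjusted p = 0.000652). Both Mnat1 calls ended without the letter block, at adjusted p of 0.175 with compound 6 and 0.0541 after withdrawal, as did the withdrawal calls of Cdk9 (0.0875) and Ccnk (0.124), which left 0 lower and 1 higher after withdrawal.

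Among the genes whose values most resembled those of Cdk19 over the 21 arrays, after removal of the letter means, were Cdadc1 (r = 0.95) and Mrps15, a mitochondrial ribosomal protein (0.94). For Cdk8 probe 1 they were Arf4, a small GTPase of the secretory pathway (0.92), Rnf11 (0.91) and Spg20 (0.91). These are among the highest values of 13945 candidate probes, so they describe the arrays and share groups with the members.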

How the data were processed

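RNA of 21 organoid samples was hybridised with Cy3 label against Cy5-labelled Universal Mouse Reference RNA, 1 array per sample and no dye swap. The deposited scanner files give spot intensities of both channels and a log10 ratio, made with Agilent Feature Extraction 10.7.3.1 per the file headers, with probe coordinates on mm9. The deposited series matrix holds log2 values; set against each array's Agilent ratio they are sample over reference; the sources used here do not name the tool.

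Control spots (3671 of 62976) were left out, 157 non-uniform spots were set missing and 0 were saturated. In R 4.3.3 with limma 3.58.1, mean intensities were corrected with normexp (offset 50), normalised by loess within arrays, and averaged per probe. A probe was kept (29628 in all) when its Cy3 signal stood well above background on 3 or more arrays, and kept probes were fitted in 1 model with terms for the 5 groups and the letter as replicate block, since the members' rule pairs by letter and every same-letter pair correlated above 0.1. Tests were two-sided, adjusted by Benjamini-Hochberg over all tested probes, with a threshold of 0.05. The labels do not say whether samples are separate cultures, so the p-values reflect only the scatter among these samples, which may be technical, and the number of arrays limits the precision. In Cy3, 42.6% to 51.9% of spots were well above background. The fit was tested on simulated data. Figures used matplotlib 3.10.9.

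The members and both gene lists were chosen with earlier results of these data known. All member probes are named; of the lists, at most 3 core Mediator and 2 kinase genes with the largest passing change per comparison, and other probes of a gene are given where they differ. Alternatives were the block, the dye and background processing, the scaling, the filter, the slide, the deposited series matrix, the samples fitted and 1 probe per gene. One gene that the rule on similar patterns names is not reported here.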

Additional observations from a re-analysis of the deposited data

Results flagged for a closer look

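Among 30 sets of values, each of 1 probe in 1 group of 4 to 7 arrays, a single array stood far from the others of its group by Dixon's criterion, and chance flags about 1 in 20 such sets. Cdk8 probe 2 read 0.48 in compound 6 F, while the other 3 compound 6 arrays read 0.20 to 0.23; the gap made up 0.892 of the group's range. Vehicle F was the highest of the vehicle D to G arrays for this probe, at 0.29.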

How the results depend on the processing

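Over 12 alternatives, Cdk19 with compound 6 kept its call in 12 (-0.46 to -0.32; adjusted p 0.000787 to 0.013) and in 8 of 8 fits that left out 1 array (-0.36 to -0.27). Cdk19 with compound 2 kept it in 10 of 12 and 3 of 6, and the difference between compounds 9 and 2 in 10 of 12 and 4 of 6. Cdk8 probe 1 kept its call in 6 of 12 with compound 6 and 6 of 12 with compound 2. With compound 6 it lost its call under median centring, at -0.03. That value is 0.06 relative to the median over all tested probes of -0.10. The number of module probes called changed as follows. Without the replicate block, 23.3% of all tested probes passed with compound 6, 18.8% after withdrawal and 4.42% with compound 2. The shares in the other fits are not given here, so their counts have no background and are not results about the module. Without the replicate block it was 1 with compound 6, 0 with compound 2, 0 between compounds 9 and 2 and 0 between compounds 6 and 9, and the same 4 counts came with the slide as block. Agilent's log ratios and the series matrix each gave 1 after withdrawal and 1 for compound 6 against withdrawal, and the series matrix 3 with compound 6. The Cy3 channel alone gave 3 after withdrawal, 1 with compound 2 and 1 for compound 6 against withdrawal. Median centring gave 1 with compound 2, 0 between compounds 6 and 9 and 1 for compound 6 against withdrawal. No filter on dim probes gave 1 with compound 6, 1 with compound 2 and 0 between compounds 6 and 9. Requiring signal on all arrays gave 1 for compound 6 against withdrawal. Without letter F it was 2 after withdrawal, 1 with compound 6, 3 with compound 2 and 1 for compound 6 against withdrawal. Fitting only the groups compared gave 1 with compound 6, 1 with compound 2, 0 between compounds 6 and 9 and 1 for compound 6 against withdrawal. Leaving out 1 array gave 0 to 2 after withdrawal, 1 to 2 with compound 6, 0 to 1 with compound 2, 0 to 1 between compounds 9 and 2, 0 to 1 between compounds 6 and 9 and 0 to 1 for compound 6 against withdrawal. Compound 9 against vehicle and compound 6 against compound 2 kept 0 calls in every alternative run. The causes of these changes were not tested. Of 904 single-probe values under the alternatives, 20 lost a call, 17 gained one and 1 more lost its call with a change of sign. Of 700 with 1 array left out, 23 lost and 9 gained one. Values that passed in neither fit changed sign 62 and 84 times in these sets. Signal over background limits Med12l, Med12 probe 2, Med13 and Med13l.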
